A study of Mus musculus with 6 samples.

Results

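Chromatin-modifying enzymes write, erase and read the chemical marks of DNA and histones or move nucleosomes. A list of 55 mouse genes for such enzymes and their core subunits was followed here: DNA methyltransferases and TET dioxygenases, histone deacetylases and sirtuins, Polycomb subunits, histone demethylases, lysine and arginine methyltransferases, lysine acetyltransferases and SWI/SNF remodelers. Of the 55 genes, 54 had a probe set that the array's annotation pairs with their symbol alone, out of 19933 genes measured in that way. Suv39h1, a methyltransferase for lysine 9 of histone H3, was not analysed here. Genes were taken by name, although earlier results of these data were known when the list was chosen. Each gene had 1 probe set, the one with the highest mean over the 6 arrays.

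MR13 cells descend from 4T1 cells that survived selection with methotrexate, an inhibitor of dihydrofolate reductase, at 13 µg/ml according to the labels. The control cells, WTR-, are untreated 4T1 cells, a line grown from a mammary tumour of a BALB/c mouse. RNA from 3 wells of each was hybridised to Affymetrix whole-transcript mouse gene arrays. MR13 is 1 selected line, so the 3 wells measure its spread in culture and not that between independent selections, and the sources do not say whether the drug was present when RNA was taken. In its text the study instead gives a concentration in the nanomolar range, just above the drug's IC50. Its text and labels also differ in duration, and which of them applies was not settled here.

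The arrays had medians between 6.57 and 6.62 on the deposited log2 scale. Correlations over all probe sets were 0.998 to 0.9987 within groups and 0.9842 to 0.9865 between them. Of 12 epithelial markers, 11 were lower in MR13 and only the keratin gene Krt8, at 13.53 ± 0.07 in MR13 and 13.41 ± 0.06 in WTR- (SD, n = 3 each), did not pass the test. Summed over the list on the linear scale, epithelial markers reached 19951 to 21677 in MR13 and 44412 to 46277 in WTR-. Among 8 fibroblast markers, Pdgfra and Dcn were higher in MR13 (log2 differences of 1.82 and 1.70), and the list summed to 1709 to 1926 in MR13 and 831 to 889 in WTR-. Myeloid markers, of which Cd68 alone was called (0.35), summed to 772 to 820 in MR13 and 664 to 699 in WTR-. Lymphocyte markers, 0 of 7 called, summed to 283 to 289 in MR13 and 261 to 283 in WTR-, and endothelial markers, 0 of 6 called, to 249 to 262 in MR13 and 231 to 248 in WTR-. The defining leukocyte gene Ptprc averaged 5.22 in MR13 and 5.17 in WTR-, and the endothelial gene Pecam1 averaged 5.16 in MR13 and 5.13 in WTR-. Both lay below the 5.51 that bounds the dimmest 30% of genes. In RNA from whole wells, fewer cells of a type and less RNA per cell cannot be told apart, and the part of these markers in the results on enzymes was not tested.

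DNA methyltransferases place methyl groups on cytosine, and TET dioxygenases oxidise them. On histone tails, acetyl groups added by acetyltransferases such as p300 are removed by deacetylases and by the NAD-dependent sirtuins, while methyl groups are placed by SET-domain enzymes and Dot1l and removed by LSD-type and JmjC demethylases. Polycomb complexes methylate lysine 27 of histone H3 (PRC2) and ubiquitinate histone H2A (PRC1). SWI/SNF complexes use ATP to move nucleosomes, and genes for several of these proteins are often mutated in cancer.

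Most of these enzymes have promoters rich in CpG dinucleotides, the substrate of the DNA methyltransferases on the list. Full-length RefSeq promoter windows of the GRCm38.p6 assembly were found for 49 of the 55 genes. Hdac1, Hdac3, Kdm2a, Kdm4b, Kdm5a and Kdm6b had no full-length window in the promoter set used and were left out. In the 250 bases before the start site, the 49 genes had a median of 18 CpG dinucleotides, against 6 over 27025 promoters of all genes. Enzymes called higher in MR13 and those called lower had the same median, 21.5 (16 genes and 12 genes). Promoter sequences are shown for the enzyme that fell most in MR13, Sirt1, and for the one that rose most, Ep300, together with Arid1a, which had the largest difference among the remodelers. Capitals mark matches on either strand to GGGCGG, the core of the Sp1 site, and to CACGTG, an E-box.
Sirt1, chr10:63339036-63339285, minus strand: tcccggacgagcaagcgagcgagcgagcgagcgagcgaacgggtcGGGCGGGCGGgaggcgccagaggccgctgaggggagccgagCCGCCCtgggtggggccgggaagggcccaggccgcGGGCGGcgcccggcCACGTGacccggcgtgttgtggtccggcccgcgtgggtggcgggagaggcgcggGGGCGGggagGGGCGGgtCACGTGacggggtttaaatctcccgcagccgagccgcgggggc
Ep300, chr15:81585964-81586208, plus strand: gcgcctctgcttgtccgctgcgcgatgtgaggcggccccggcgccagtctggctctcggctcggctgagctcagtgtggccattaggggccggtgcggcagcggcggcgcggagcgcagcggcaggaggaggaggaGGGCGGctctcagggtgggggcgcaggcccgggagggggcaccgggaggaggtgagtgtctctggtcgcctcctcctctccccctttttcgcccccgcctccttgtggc
Arid1a, chr4:133756770-133757019, minus strand: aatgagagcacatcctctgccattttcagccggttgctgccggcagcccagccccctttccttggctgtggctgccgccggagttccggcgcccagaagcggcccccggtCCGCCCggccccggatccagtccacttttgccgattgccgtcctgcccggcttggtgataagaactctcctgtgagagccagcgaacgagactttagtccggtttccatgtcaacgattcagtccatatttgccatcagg

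The Sirt1 window held 39 CpG dinucleotides in 250 bases, 6 matches to GGGCGG, of which a pair overlap each other, and 2 to CACGTG. The Ep300 window of 245 bases held 24 CpG dinucleotides and 1 match to GGGCGG, and the Arid1a window of 250 bases held 18 and 1. GC content was 79.2%, 73.9% and 61.2% in the Sirt1, Ep300 and Arid1a windows. GGGCGG occurred in 67.3% of the 49 promoters of the list and in 33% of all promoters of the same length. It was found in 12 of 16 promoters of enzymes that rose and in 6 of 12 of those that fell. CACGTG was in 8.16% of the list (Sirt1, Bmi1, Ehmt2 and Prmt1) and 6.04% of all promoters. CCAAT was in 34.7% and 34.5%, and the STAT-type palindrome TTCNNNGAA was in 4.08% (Sirt7 and Setd7) and 7.14%. Both strands were searched for all 4, no base of the printed windows belonged to matches of more than 1 of the 4 motifs, and a match describes letters and not a bound site.

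At an adjusted p under 0.05 (limma, Benjamini-Hochberg over 19933 genes), 19 of the 54 enzymes were higher in MR13 and 13 were lower, or 59.3%, whereas 37.6% of all genes passed the same test. Calls higher in MR13 made up 35.2% of the list and 17% of all genes, and calls lower in MR13 made up 24.1% and 20.6%. In 41 enzymes (75.9%) the 3 MR13 values lay entirely above or entirely below the 3 WTR- values, which 47.4% of all genes did. Low genes are called less often, and 1 enzyme, Hdac9, was among the dimmest 30% of genes, so the share was also taken without those genes. It was then 69.8% of 53 enzymes, against 54.8% of 13953 genes. That filter does not match other genes to the enzymes in brightness. Of the 9965 genes at or above the median brightness, 27.3% were called higher in MR13 and 34.9% lower. The part of brightness in the share of enzymes called was not tested.

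The changes were small. The log2 difference, MR13 minus WTR-, ran over the list from -0.76 for Sirt1 to 0.75 for Ep300, with a median of 0.05 and a median size of 0.20. Over all genes the median was 0.01 and the median size 0.13. Of the enzymes called, 4 differed by at least 1.5-fold (Ep300 and Tet2 higher, Sirt1 and Kdm1b lower), where 11% of all genes were called at that size. None of the 54 reached 2-fold, which 4.06% of all genes did.

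**Figure D1:**
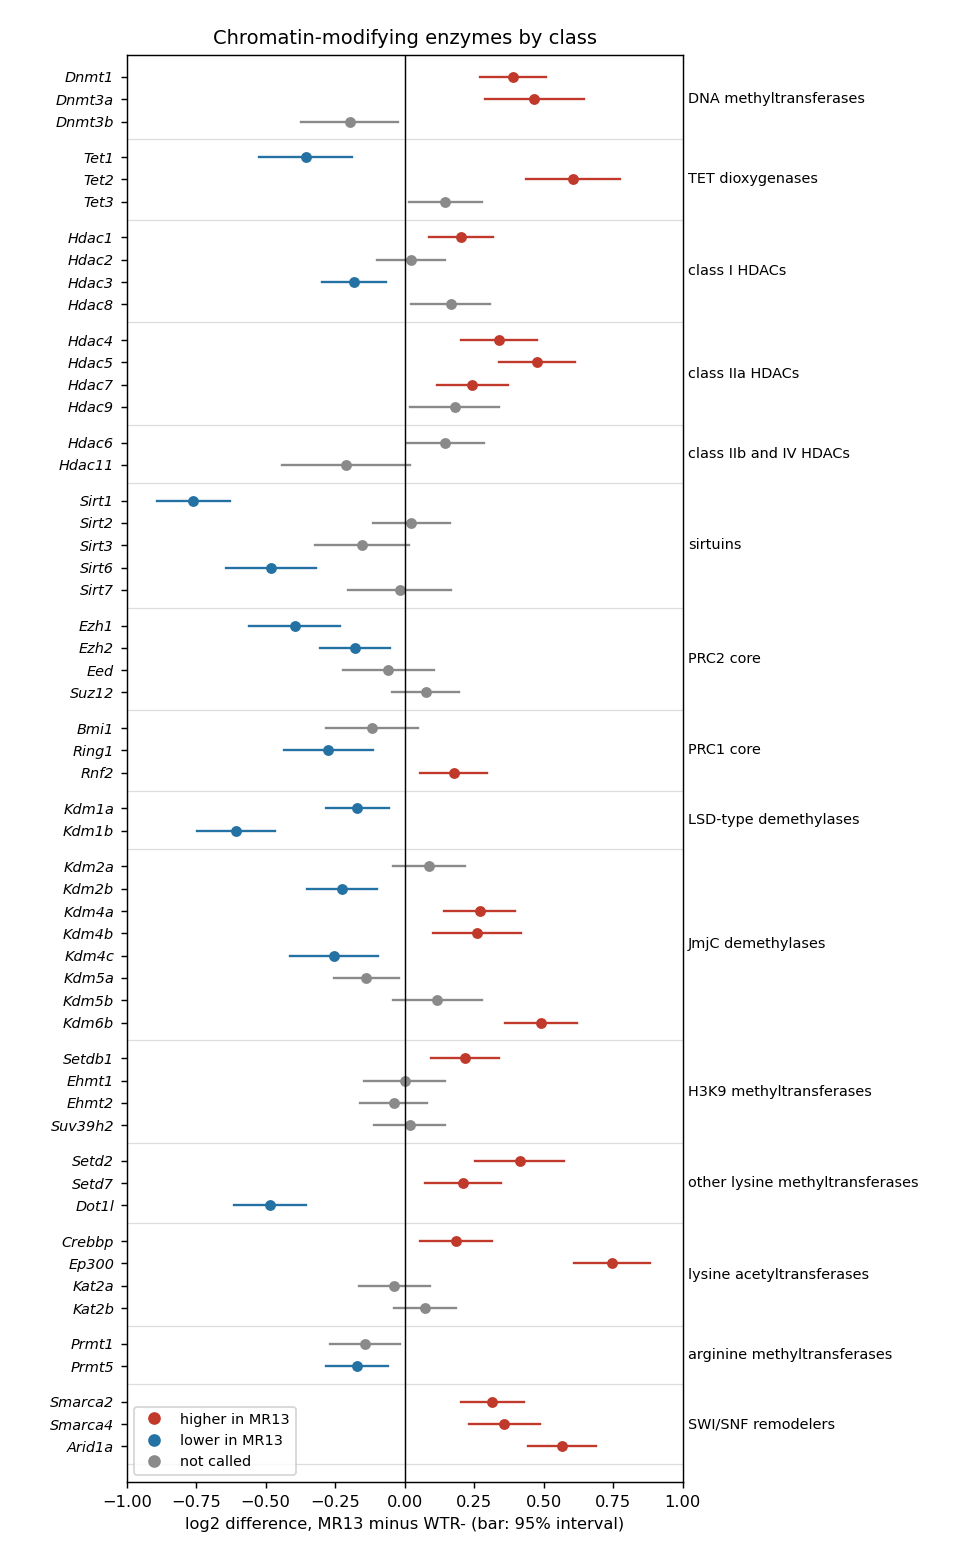
Log2 difference (MR13 minus WTR-) of the 54 measured enzymes, grouped by class, with bars for the 95% interval from the limma fit and colours for the call at an adjusted p under 0.05. Points run from -0.76 for Sirt1 to 0.75 for Ep300, and the 3 SWI/SNF genes all lie to the right of 0.

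Of the 3 DNA methyltransferases, Dnmt1 and Dnmt3a were higher in MR13 and Dnmt3b was not called. Dnmt1, which copies methylation onto newly made DNA, had log2 values of 11.24, 11.31 and 11.27 in MR13 and 10.92, 10.89 and 10.84 in WTR-. All 3 MR13 values exceeded all WTR- values, a difference of 0.39 ± 0.05 (SE, adjusted p = 0.000305), or 1.31-fold. Dnmt3a, a de novo methyltransferase, had 7.78, 7.91 and 7.85 in MR13 and 7.51, 7.40 and 7.23 in WTR-. The groups did not overlap, and the difference was 0.47 ± 0.08 (adjusted p = 0.00124). Its paralog Dnmt3b had 5.99, 6.11 and 5.90 in MR13 and 6.32, 6.16 and 6.11 in WTR-. Here the groups overlapped at their edge, with a difference of -0.20 (95% interval -0.37 to -0.02, adjusted p = 0.0757). Dnmt1 is known to be transcribed mainly in dividing cells. Beside it, 14 of 27 S phase genes were higher (51.9%) and 6 lower (22.2%), and 18 of 26 mitotic genes were higher (69.2%) and 3 lower (11.5%), where 17% of all genes were higher and 20.6% lower. Their summed linear levels were 48653 to 49720 in MR13 and 44957 to 45460 in WTR- for S phase genes, and 73091 to 74276 in MR13 and 65332 to 66592 in WTR- for mitotic genes. In culture, the study reports a lower proliferative capacity of MR13 cells than of the parental cells. The RNA levels of these lists were not compared with growth rates. The part of the S phase and mitotic genes in the result was not tested.

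The TET dioxygenases moved in opposite directions. Tet2 had 8.13, 7.89 and 8.09 in MR13 and 7.49, 7.35 and 7.44 in WTR-. Every MR13 value was above every WTR- value, by 0.61 ± 0.07 on average (adjusted p = 0.000192). Tet1 had 6.68, 6.63 and 6.51 in MR13 and 6.92, 6.88 and 7.09 in WTR-. It was lower in MR13 without overlap, by a log2 difference of -0.36 ± 0.07 (adjusted p = 0.00393), and its other probe sets gave -0.35 and -0.25. Tet3 differed by 0.15 (95% interval 0.01 to 0.28, adjusted p = 0.0815), and a second probe set gave 0.17.

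Class IIa histone deacetylases shuttle between nucleus and cytoplasm and bind MEF2 factors. All 4 were on the higher side in MR13, with 3 called (75%), where 17% of all genes were called higher. Hdac5 had 8.86, 9.04 and 8.93 in MR13 and 8.46, 8.45 and 8.48 in WTR-, a difference of 0.48 ± 0.06 (adjusted p = 0.000231). Hdac4 had 8.21, 8.28 and 8.29 in MR13 and 8.01, 7.84 and 7.92 in WTR-, a difference of 0.34 ± 0.06 (adjusted p = 0.00168), and its second probe set gave 0.51. Neither gene overlapped between the groups. Hdac7 rose by 0.24 (adjusted p = 0.00726), and Hdac9 differed by 0.18 (95% interval 0.02 to 0.34, adjusted p = 0.0763).

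Class I deacetylases, which include the catalytic subunits of the Sin3, NuRD, CoREST and NCoR complexes, split. Hdac1 was higher by 0.20 (adjusted p = 0.0117), and its second probe set gave 0.24. Hdac3, the deacetylase of the NCoR complex, was lower, at -0.18 (adjusted p = 0.0185). Hdac2 differed by 0.02 (95% interval -0.10 to 0.15) and Hdac8 by 0.17 (0.02 to 0.31), and neither was called. The calls of Hdac1 and Hdac3 were lost without WTR- replicate 2 (adjusted p = 0.0526 and 0.0548), and that of Hdac3 also without WTR- replicate 1 or MR13 replicate 3. Of class IIb and IV, Hdac6, a cytoplasmic tubulin deacetylase, differed by 0.15 (0.01 to 0.28) and was listed at 8.82 on all 3 WTR- arrays. Hdac11 differed by -0.21 (-0.44 to 0.02).

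Among the 5 sirtuins measured, 2 were lower in MR13 and none higher, a called share of 40% that is close to the 37.6% of all genes. Sirt1, a nuclear deacetylase of histones, p53 and other proteins, had 8.76, 8.79 and 8.87 in MR13 and 9.59, 9.50 and 9.62 in WTR-. The groups were far apart compared with their spread, with a difference of -0.76 ± 0.06 (adjusted p = 9.44e-06), 1.69-fold lower in MR13. Sirt6, which deacetylates histone H3 at telomeres and glycolytic genes, had 9.42, 9.60 and 9.69 in MR13 and 10.06, 10.05 and 10.04 in WTR-. MR13 values spread more than those of WTR- and all lay below them, with a difference of -0.48 ± 0.07 (adjusted p = 0.000600). Sirt2 differed by 0.02 (95% interval -0.11 to 0.16), the mitochondrial Sirt3 by -0.15 (-0.32 to 0.02) and the nucleolar Sirt7 by -0.02 (-0.20 to 0.17).

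**Figure D2:**
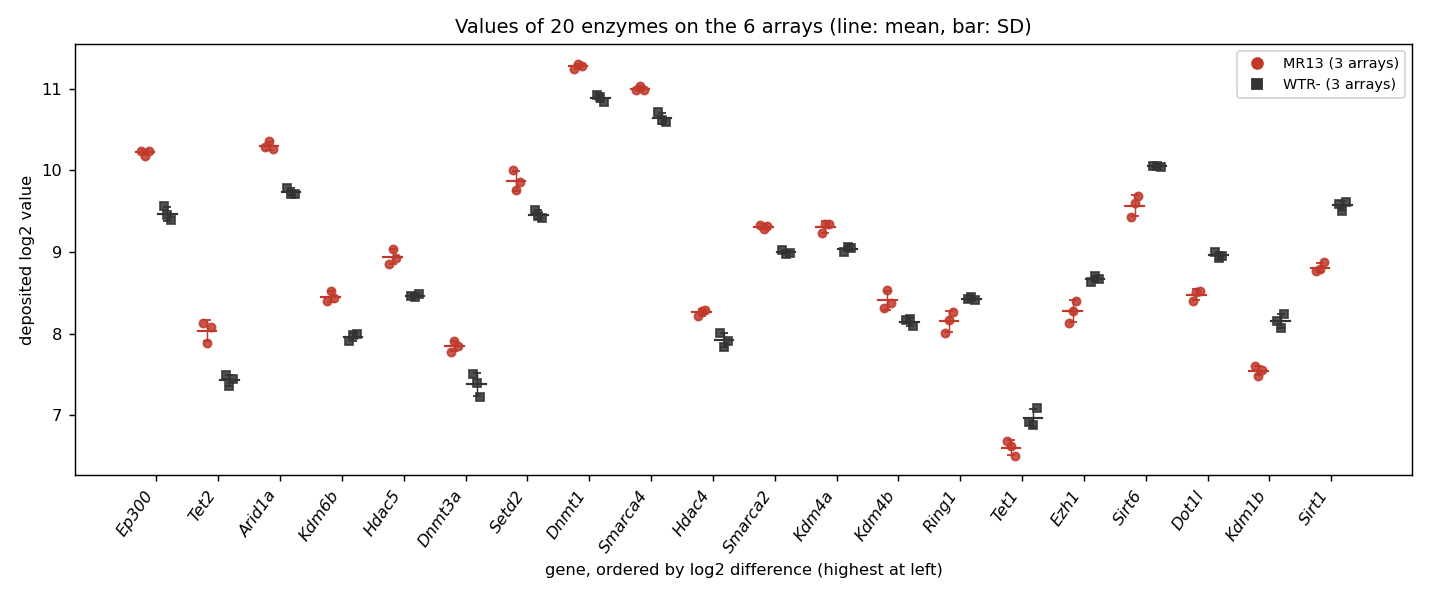
Deposited log2 values (vertical axis) of 20 enzymes on the 3 MR13 arrays (red circles) and the 3 WTR- arrays (dark squares), with lines for means and bars for SD, ordered from the highest log2 difference to the lowest. The 20 have the largest differences among the enzymes called and without overlap between groups. They run from Ep300 (10.18 to 10.24 in MR13, 9.39 to 9.56 in WTR-) to Sirt1 (8.76 to 8.87 in MR13, 9.50 to 9.62 in WTR-).

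Both catalytic subunits of PRC2 were lower in MR13. Ezh1 had 8.14, 8.28 and 8.40 in MR13 and 8.64, 8.70 and 8.67 in WTR-, a difference of -0.40 ± 0.07 (adjusted p = 0.00200) with no overlap. Ezh2, the form typical of dividing cells, had 10.95, 11.01 and 10.97 in MR13 and 11.22, 11.15 and 11.10 in WTR-. The S phase and mitotic lists were mostly higher in MR13, although the study reports a lower proliferative capacity of these cells in culture. Ezh2 was lower by a smaller amount than Ezh1, -0.18 ± 0.05 (adjusted p = 0.0298). That call was lost without any 1 of 4 arrays (WTR- replicates 1 and 2, MR13 replicates 1 and 3), with adjusted p up to 0.1003, and with the replicate number as a block (adjusted p = 0.0516). The scaffold subunits Eed and Suz12 were not called, at -0.06 (95% interval -0.22 to 0.11) and 0.08 (-0.04 to 0.20), and a second probe set of Eed gave 0.19, with the other sign.

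The RING-type ubiquitin ligases of PRC1 moved apart. Ring1 had 8.01, 8.17 and 8.27 in MR13 and 8.43, 8.45 and 8.41 in WTR-, a difference of -0.27 ± 0.07 (adjusted p = 0.0128), a call lost with a gene-by-gene test without limma's shared variance. Its paralog Rnf2, also called Ring1b, was higher by 0.18 (adjusted p = 0.0262), a call that was lost without WTR- replicate 1, MR13 replicate 1 or MR13 replicate 3. Bmi1, a subunit that stimulates the ligase, differed by -0.12 (95% interval -0.28 to 0.05).

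Flavin-dependent LSD-type demethylases, which remove methyl groups from lysine 4 of histone H3, were both lower in MR13. Kdm1b had 7.60, 7.49 and 7.55 in MR13 and 8.15, 8.07 and 8.24 in WTR-. The groups were separate, with a difference of -0.61 ± 0.06 (adjusted p = 6.03e-05). Kdm1a, the demethylase subunit of the CoREST complex, had 10.01, 10.03 and 9.99 in MR13 and 10.21, 10.19 and 10.14 in WTR-. It was lower by a log2 difference of -0.17 ± 0.05 (adjusted p = 0.0253), a call lost without WTR- replicate 1 or 2 or MR13 replicate 3.

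Of the 8 JmjC demethylases, 3 were higher in MR13 (37.5%) and 2 lower (25%), where 17% of all genes were higher and 20.6% lower. Kdm6b, which demethylates lysine 27 of histone H3 and so works against PRC2, had 8.41, 8.53 and 8.43 in MR13 and 7.91, 7.99 and 7.998 in WTR-. All MR13 values were higher, by 0.49 ± 0.06 on average (adjusted p = 0.000133). The Kdm4 group, demethylases of lysines 9 and 36, was divided. Kdm4a had 9.23, 9.35 and 9.35 in MR13 and 9.003, 9.06 and 9.05 in WTR- (0.27 ± 0.06, adjusted p = 0.00416). Kdm4b had 8.31, 8.54 and 8.37 in MR13 and 8.17, 8.18 and 8.09 in WTR- (0.26 ± 0.07, adjusted p = 0.0153). Kdm4c was lower, at -0.25 (adjusted p = 0.0178). The call of Kdm4b was lost without WTR- replicate 3 and with a gene-by-gene test without limma's shared variance. That of Kdm4c was lost without MR13 replicate 1 or 2, with that test and after another quantile normalization. Kdm2b, which recruits a PRC1 variant to CpG islands, was lower at -0.23 (adjusted p = 0.0101). Kdm2a differed by 0.09 (95% interval -0.04 to 0.22), and the lysine 4 demethylases Kdm5a and Kdm5b by -0.14 (-0.26 to -0.02) and 0.12 (-0.04 to 0.28).

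Of the 7 lysine methyltransferases outside Polycomb, 3 were higher in MR13 and 1 lower, where 17% of all genes were higher and 20.6% lower. Setd2, which trimethylates lysine 36 of histone H3, had 10.00, 9.76 and 9.86 in MR13 and 9.52, 9.44 and 9.42 in WTR-, a difference of 0.41 ± 0.07 (adjusted p = 0.00136), and a second probe set gave 0.48. Dot1l, the lysine 79 methyltransferase, had 8.40, 8.51 and 8.52 in MR13 and 9.002, 8.92 and 8.95 in WTR-. It moved the other way, at -0.48 ± 0.06 (adjusted p = 0.000142), and neither gene overlapped between groups. Setd7 and Setdb1 were higher by 0.21 (adjusted p = 0.0216) and 0.22 (adjusted p = 0.0107). The call of Setd7 was lost without WTR- replicate 2, MR13 replicate 2 or MR13 replicate 3, and with the gene-by-gene test. Among the other lysine 9 methyltransferases, Ehmt1 (GLP), Ehmt2 (G9a) and Suv39h2 differed by 0.00, -0.04 and 0.02, with intervals of -0.14 to 0.15, -0.16 to 0.08 and -0.11 to 0.15.

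Ep300, encoding the acetyltransferase and coactivator p300, rose most. It had 10.23, 10.18 and 10.24 in MR13 and 9.56, 9.46 and 9.39 in WTR-, a difference of 0.75 ± 0.06 (adjusted p = 1.39e-05), or 1.68-fold. Its paralog Crebbp, encoding CBP, had 10.25, 10.27 and 10.17 in MR13 and 10.11, 10.01 and 10.01 in WTR-. It was higher by 0.19 ± 0.06 (adjusted p = 0.0303), and lost the call without WTR- replicate 2 or 3 or MR13 replicate 1 or 2 (adjusted p up to 0.0988). Kat2a and Kat2b, the GCN5 and PCAF acetyltransferases, differed by -0.04 (95% interval -0.16 to 0.09) and 0.07 (-0.04 to 0.18). Of the arginine methyltransferases, Prmt5, the main source of symmetric dimethylarginine, was lower at -0.17 (adjusted p = 0.0205), a call lost without WTR- replicate 1 or 2 or MR13 replicate 3. Prmt1 differed by -0.14 (-0.27 to -0.02, adjusted p = 0.0765).

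SWI/SNF was the class in which all 3 listed genes were higher in MR13, where 17% of all genes were higher. Arid1a, a DNA-binding subunit of the BAF complex, had 10.28, 10.36 and 10.27 in MR13 and 9.78, 9.71 and 9.72 in WTR-. It had the largest difference of the 3, 0.57 ± 0.05 (adjusted p = 4.02e-05). Smarca4, the BRG1 ATPase, had 10.98, 11.04 and 10.98 in MR13 and 10.72, 10.61 and 10.59 in WTR- (0.36 ± 0.06, adjusted p = 0.000777). Smarca2, the BRM ATPase, had 9.33, 9.28 and 9.32 in MR13 and 9.02, 8.98 and 8.99 in WTR- (0.32 ± 0.05, adjusted p = 0.000833). None of the 3 overlapped between the groups.

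Paralogous enzymes were compared within each array, as the difference of their log2 differences over 8 pairs. Ep300 differed more than Crebbp by 0.56 ± 0.05 (SE), with the array values of the 2 groups apart. Dnmt3a minus Dnmt3b came to 0.66 ± 0.06, Kdm1a minus Kdm1b to 0.44 ± 0.08 and Hdac1 minus Hdac2 to 0.18 ± 0.05, also with the groups apart. For Ezh2 minus Ezh1 (0.22 ± 0.09), Smarca4 minus Smarca2 (0.04 ± 0.04), Kat2a minus Kat2b (-0.11 ± 0.04) and Ehmt1 minus Ehmt2 (0.04 ± 0.06) the groups overlapped. With 3 arrays against 3 the exact two-sided permutation test cannot go below p = 0.1, the value of the 4 separated pairs (0.2 after Benjamini-Hochberg adjustment), so no pair passed.

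Position on the chromosomes was examined after the values were known, over 9965 genes at or above the median brightness. Enzymes that bright are among them, and dimmer ones such as Tet1 are not. Of the 5 enzymes on chromosome 10, Tet1, Sirt1, Sirt6 and Dot1l were lower in MR13 and Hdac2 was not called. The 498 genes of that brightness there had a median log2 difference of -0.28, with 61.4% lower and 11.4% higher. Over the 9965 genes the median was -0.03, with 34.9% lower and 27.3% higher. Chromosome 15, which carries Ep300 and Hdac7, had a median of 0.23 over 411 genes, with 55.2% higher and 13.6% lower. On chromosome 19 (Kdm2a and Smarca2) the median was -0.26 over 353 genes and 58.9% were lower, yet Smarca2 was higher. On chromosome 2 (Dnmt3b, Bmi1, Ehmt1 and Suv39h2) it was 0.20 over 806 genes with 53.6% higher, and none of its 4 enzymes was called.

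**Figure D3:**
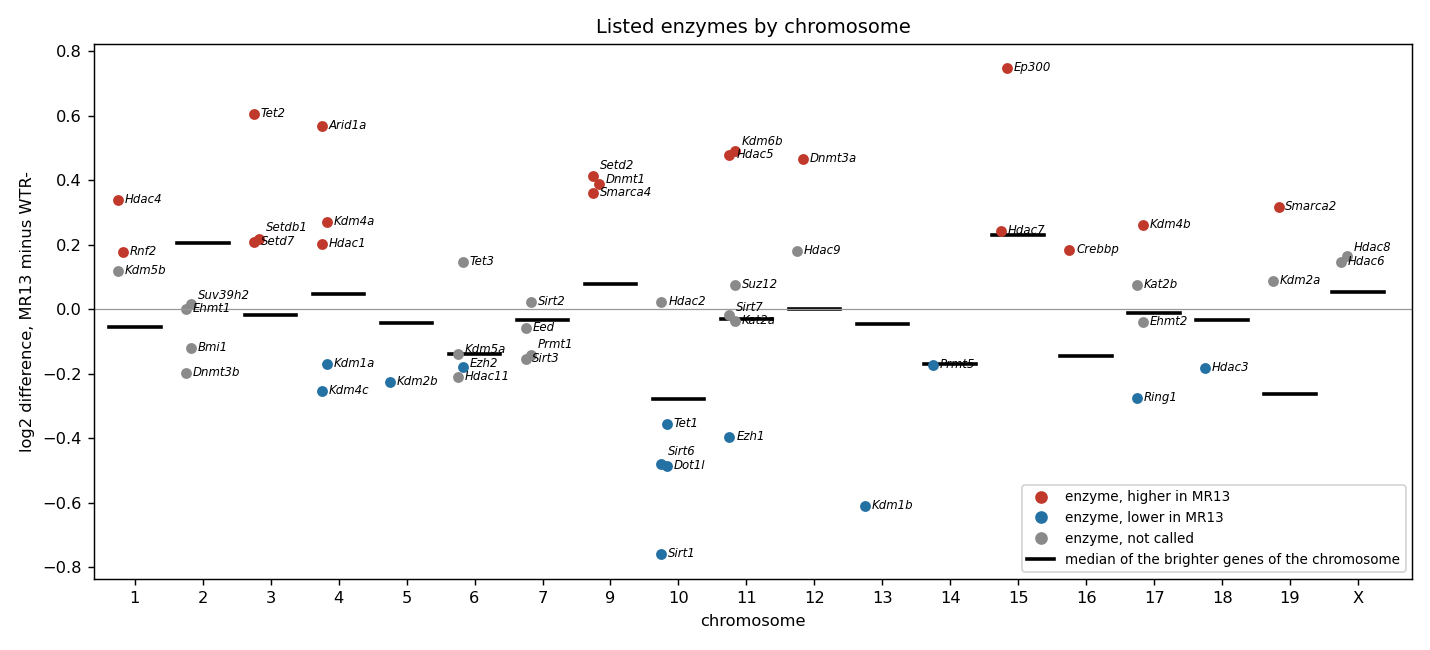
Log2 difference (MR13 minus WTR-) of the 54 enzymes by chromosome, coloured by call, with black bars for the median of the genes of that chromosome that were brighter than the median gene. Chromosome 10 has a median of -0.28 and 4 of its 5 enzymes were lower, and chromosome 15 has a median of 0.23.

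The nearest neighbours gave a finer view, with up to 10 brighter genes on each side of an enzyme. Around Tet1 the 20 neighbours had a median of -0.36, and 13 were lower. Sirt1 and Dot1l had neighbour medians of -0.28 and -0.31, each with 13 of 20 lower. Hdac7 and Ep300 had neighbour medians of 0.41 (15 of 20 higher) and 0.24 (12 of 20 higher). The neighbours of Kdm1b, at 0.10, and of Tet2, at -0.05, had medians of the opposite sign to the enzyme, and those of Arid1a and Sirt6 had medians of 0.04 and -0.01. Across the 54 enzymes the neighbour median had the same sign as the enzyme in 34, and in 23 of the 32 called. The correlation between them was r = 0.283 (Spearman rho = 0.294), a description over genes that share the same 6 arrays and, in part, the same neighbours. The part of chromosomal position in the results was not tested.

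Partners of the enzymes came from 14 lists of complex subunits, related enzymes and donor and cofactor metabolism, 231 genes of which 219 were measured. Of these, 52 were higher and 74 lower in MR13, or 57.5%, beside 59.3% for the enzymes and 37.6% for all genes. Only 6 of the 219 were among the dimmest 30% of genes. Partner genes were higher in 23.7% and lower in 33.8%. Over the 9965 genes at or above the median brightness, 27.3% were higher and 34.9% lower. The part of brightness in the share of partner genes called was not tested. Their median log2 difference was -0.02 and their median size 0.21. None of the lists was chosen without knowledge of earlier results, and their counts are descriptions.

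Among DNA methylation partners, 4 of 12 were higher and 4 lower, a called share of 66.7% beside 37.6% of all genes. Uhrf1, which brings Dnmt1 to newly replicated DNA, was higher by 0.29 (adjusted p = 0.00170), as Dnmt1 was, and its relative Uhrf2 was lower at -0.53 (adjusted p = 4.75e-05). The stress-induced gene Gadd45b, linked to DNA demethylation, averaged 7.93 ± 0.08 in MR13 and 9.75 ± 0.07 in WTR- (SD, n = 3 each), 3.53-fold lower, while Gadd45g was higher by 0.63.

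Accessory Polycomb genes had some of the largest changes of all 14 lists. Pcgf1 averaged 6.75 ± 0.11 in MR13 and 8.04 ± 0.10 in WTR-, 2.45-fold lower (adjusted p = 2.04e-06). Pcgf6 averaged 9.05 ± 0.08 in MR13 and 10.19 ± 0.09 in WTR-, 2.20-fold lower (adjusted p = 1.83e-06). Both encode subunits that define variant PRC1 complexes. Pcgf1 works in the complex that holds Kdm2b, itself lower. In all, 3 of 15 PRC1 accessory genes were higher and 4 lower, a called share of 46.7% beside 37.6% of all genes. Those higher were L3mbtl2 (0.46), Rybp (0.42) and Yaf2 (0.40), and the others lower were Pcgf5 (-0.79) and Phc1 (-0.32). Among 8 PRC2 accessory genes 3 were higher, with Phf19, a Tudor-domain subunit, at 0.56 and Rbbp7 at 0.23, and 1 lower (Epop, -0.22). The called share of that list was 50%.

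In the HDAC corepressor complexes, 8 of 26 genes were higher and 9 lower, a called share of 65.4% beside 37.6% of all genes. Phf21a, the subunit of the Kdm1a complex that binds unmethylated lysine 4 of histone H3, was higher by 0.70 (adjusted p = 6.63e-06), whereas Kdm1a was lower. Chd3, a NuRD ATPase, was higher by 0.63 (adjusted p = 2.81e-05). The list of MLL-family and COMPASS genes, most of which encode lysine 4 methyltransferases or subunits of their complexes, counted 7 of 17 higher and 4 lower. Its called share was 64.7%. Kmt2e (MLL5), a family member that is not a COMPASS subunit and is not known to methylate lysine 4, averaged 11.07 ± 0.11 in MR13 and 9.96 ± 0.09 in WTR-, 2.16-fold higher (adjusted p = 4.08e-06), and the core subunit Dpy30 was lower at -0.58 (adjusted p = 7.9e-05).

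Of 10 other arginine methyltransferases and their cofactors, 7 were lower and 0 higher, where 20.6% of all genes were lower. Prmt7 averaged 9.29 ± 0.06 in MR13 and 10.11 ± 0.05 in WTR- (-0.82, adjusted p = 5.64e-06) and Prmt2 7.93 ± 0.12 in MR13 and 8.67 ± 0.08 in WTR- (-0.74, adjusted p = 5.74e-05). Wdr77 and Clns1a, partners of Prmt5, were lower too, at -0.20 and -0.21. Of 18 other lysine methyltransferases 44.4% were called, beside 37.6% of all genes. Of these, 7 were lower, led by Setd6 (-0.70) and Setmar (-0.58), and 1 was higher, Prdm2 (0.38).

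Other acetyltransferases and their partners had 11 of 25 lower (44%) and 5 higher (20%). Over all genes 20.6% were lower and 17% higher, and over the 9965 genes at or above the median brightness 34.9% and 27.3%. Naa40, which acetylates the N-terminus of histones H4 and H2A, was lower at -0.74, and Supt7l, a SAGA subunit, was higher by 0.52. Readers of acetylated lysine had 6 of 14 higher, with Trim24 at 0.52 and Mllt3 at 0.51, and 2 lower. Their called share was 57.1%, beside 37.6% of all genes. Other histone demethylases (38.5% called) and heterochromatin partners (36.4%) were called about as often as all genes (37.6%). The first had 2 of 13 higher and 3 lower, with Riox2 at -1.08 and Jmjd1c at -0.53. The heterochromatin list had 1 of 11 higher, the HP1 gene Cbx5 (0.39), and 3 lower, with its paralog Cbx1 at -0.37.

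Further SWI/SNF subunits were mixed where the 3 listed genes were all higher: 5 of 24 were higher (20.8%) and 8 lower (33.3%). Over all genes 17% were higher and 20.6% lower, and over the 9965 genes at or above the median brightness 27.3% and 34.9%. Smarcd1 was higher by 0.66 (adjusted p = 3.34e-05) and Brd7, a subunit of the PBAF form, lower at -0.67 (adjusted p = 2.9e-05). Other ATP-dependent remodelers had 4 of 15 higher (26.7%), with Chd6 at 0.57, and 5 lower (33.3%), with Smarcad1 at -0.63.

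**Figure D4:**
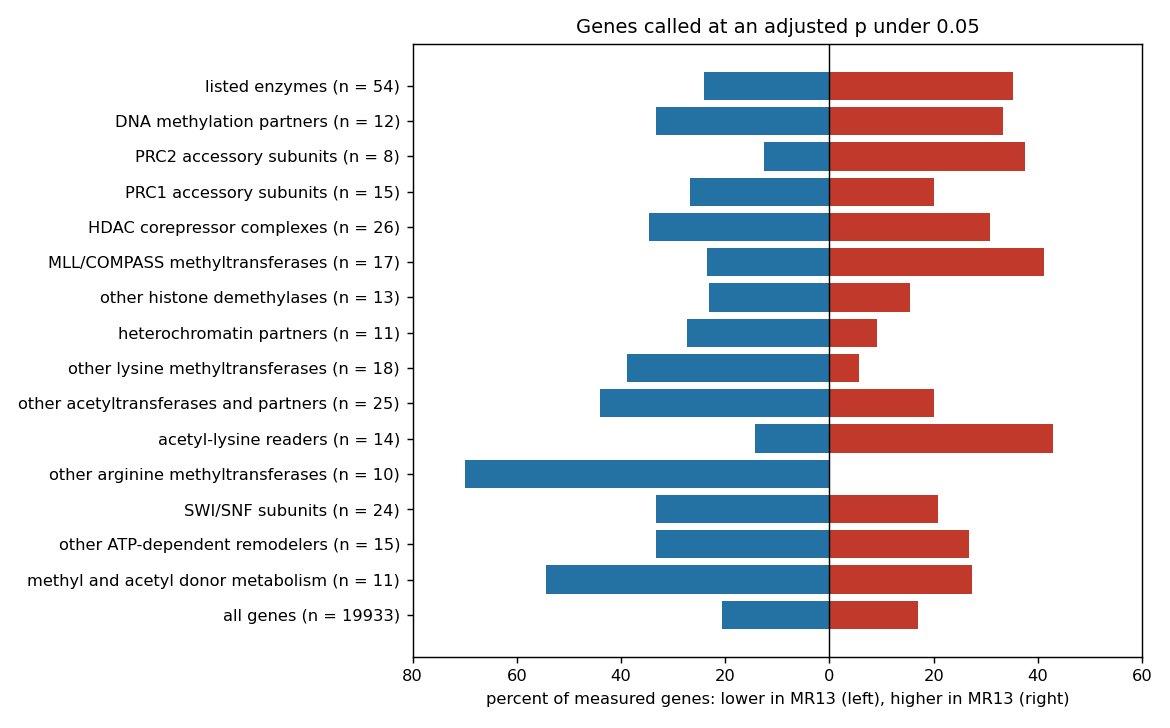
Percent of measured genes called lower (left, blue) and higher (right, red) in MR13 at an adjusted p under 0.05, for the 54 enzymes, for each of 14 partner lists and for all 19933 genes, with the number measured beside each name. The enzymes show 24.1% lower and 35.2% higher, all genes 20.6% and 17%, and other arginine methyltransferases 70% lower and 0 higher.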

How the data were processed

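RNA of 3 MR13 and 3 WTR- wells was hybridised to Affymetrix mouse gene arrays. The authors deposited log2 expression values for 28350 probe sets (range 2.42 to 14.4). Their processing notes name affy and limma. How the background was corrected and the arrays normalized was not stated in the sources read. The annotation gave 1 symbol to 21780 probe sets, several to 1618 (not used) and none to 4952. The probe set with the highest mean was kept for each of 19933 genes. Values were fitted with limma 3.58.1 in R 4.3.3 (lmFit, eBayes, two-sided, Benjamini-Hochberg over all genes), without covariates, and called at an adjusted p under 0.05. The step was tested on simulated data. Arrays carry no read depth, so the 3 arrays per group limit the precision. The labels describe wells of each line and the study calls them biological replicates, so p values measure the spread between such cultures of 1 selected and 1 untreated line.

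Members and lists were chosen with earlier results of these data known. Array values are given for the 20 called enzymes with the largest differences and no overlap between groups, and for the paralogs they were paired with in the comparison of 8 pairs, and from each partner list the 2 such genes with the largest differences are named. Other genes named from the lists were chosen after their values were seen. Alternatives were renormalization, centring, a filter on dim genes, the mean of probe sets, a trended prior, a replicate block, a plain t-test, a minimum fold and single arrays left out. Promoters were searched in Python 3.11.15.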

Additional observations from a re-analysis of the deposited data

How the results depend on the processing

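Of the 32 enzymes called, 21 kept their call under all 13 alternatives other than the minimum fold, and 30 did so when the plain t-test and single arrays left out are not counted either. The counts of enzymes higher and lower were 24 and 13 after another quantile normalization (partner genes 64 and 69, all genes 3940 and 3836, against 3386 and 4111 as deposited), 21 and 16 without the dimmest 30% of genes, 19 and 14 with a trended prior, and 18 and 12 with the t-test. Leaving out 1 array gave 16 to 19 higher and 9 to 13 lower. A minimum of 1.5-fold, which removes small changes by construction, left 2 higher and 2 lower enzymes, 7 and 13 partner genes, and 926 and 1267 of all genes. Renormalization lost Kdm4c and the t-test lost Ring1, Kdm4b, Kdm4c and Setd7. Values changed sign in uncalled genes only: after quantile normalization Sirt7 (0.051), Eed (0.0042) and Ehmt2 (6e-04), and with the mean of probe sets Eed (0.0653). With 1 array left out, Ehmt1 ranged from -0.0472 to 0.0435, Suv39h2 from -0.0115 to 0.0472, Sirt2 from -0.0279 to 0.0535, Sirt7 from -0.0852 to 0.0747, Eed from -0.1063 to 5e-04 and Hdac2 from -0.0068 to 0.0547. Among paralogs, Smarca4 minus Smarca2 became -0.0098 after quantile normalization, and Ehmt1 minus Ehmt2 ranged from -0.0178 to 0.0786 without 1 array. The cause of these changes was not tested. Alternatives for paralogs and for all genes were chosen after seeing the data.

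The replicate block gave 20 enzymes higher and 13 lower, with Ezh2 lost and Hdac9 and Hdac11 gained. Same-numbered arrays had correlations of 0.128, -0.001 and 0.182 between their deviations from the group means. Differently numbered arrays ran from -0.197 to 0.053. These few values cannot decide whether same-numbered arrays were paired.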

Other observations

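Genes for the metabolism of methyl and acetyl donors, and of the cofactors 2-oxoglutarate and NAD, differed between the lines. Of 11 such genes measured, 3 were higher in MR13 and 6 lower, or 81.8%, against 37.6% of all genes. Idh1, the cytosolic isocitrate dehydrogenase that makes the TET and JmjC cofactor 2-oxoglutarate, averaged 13.08 ± 0.05 in MR13 and 11.84 ± 0.04 in WTR- (SD, n = 3 each), 2.35-fold higher (limma, adjusted p = 3.62e-07). Its mitochondrial relatives Idh2 and Idh3a were lower, at log2 differences of -0.34 and -0.37, and Ogdh, which consumes 2-oxoglutarate, was higher by 0.49. Of the sources of nuclear acetyl-CoA, Acss2 was higher by 0.63 and Acly lower at -0.66, with the citrate carrier Slc25a1 at -0.57. Nampt, the rate-limiting enzyme of NAD salvage and so of sirtuin cofactor supply, was lower at -0.20.

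Genes around Tet1 and Sirt1 on chromosome 10 were mostly lower in MR13. Herc4, beside Sirt1, averaged 9.35 in MR13 and 9.95 in WTR- (-0.60), the demethylase gene Jmjd1c 9.51 in MR13 and 10.04 in WTR- (-0.53), and the helicase gene Ddx50 8.15 in MR13 and 8.68 in WTR- (-0.53). Reep3 was at 0.00, and Egr2, an immediate-early transcription factor gene, was higher, with 8.50 in MR13 and 7.39 in WTR- (1.11, adjusted p = 5.41e-06).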
